A study of Homo sapiens with 7 samples.

Results

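The genes described here are 35 genes of homologous recombination and of the Fanconi pathway, taken by symbol from a list. All 35 were found among the 57773 rows of the gene table, and all 35 passed the filter on low counts, as did 16198 genes in all. The study concerns APE1, the endonuclease of base excision repair encoded by APEX1, and its binding to G-quadruplexes, folded structures of guanine-rich DNA, in triple-negative breast cancer. RNA-seq was done in MDA-MB-231, an established human triple-negative breast cancer line. There were 2 libraries labelled KD and 3 labelled parent, with no age, time or treatment given for either group. The abbreviation KD is not spelled out in the labels. A protocol shared by all samples describes TNBC cells with APE1 knocked out, transduced with a doxycycline-inducible lentiviral vector for wild-type or mutant APE1. The labels do not say whether these libraries came from such cells, whether KD was 1 clone or a pool, or whether replicates were separate cultures. The p-values therefore set the group difference against the spread between these libraries, which may be technical.

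Homologous recombination rebuilds a broken chromosome from an intact copy, in S and G2 phase. Nucleases first trim the broken ends, BRCA1 and its partners bring in BRCA2, and BRCA2 acts on the exposed DNA strand. The Fanconi pathway deals with crosslinks between the strands of DNA: a core complex attaches ubiquitin to the FANCD2 and FANCI pair, nucleases unhook the crosslink, and homologous recombination finishes the repair. Inherited loss of several of these genes predisposes to breast and ovarian cancer.

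Library totals ran from 14601078 to 18049386 counts. Counts of APEX1 were 640 and 753 in the KD libraries and 1936, 1936 and 2413 in the parent libraries, and its level was 2.84-fold lower in KD (log2 fold change -1.51 ± 0.0727 SE, edgeR adjusted p = 5.9e-05). Of 10 genes written down as high in this line, 9 had at least 642 counts in each library, among them VIM and CD44, while SPARC had 8 to 84. Of these 10 genes, 6 were called (edgeR): SPARC and FN1 rose 7.15-fold and 2.24-fold, and ZEB1, ANXA1, CD44 and AXL fell with changes of 1.38-fold, 1.28-fold, 1.27-fold and 1.25-fold. The epithelial cadherin CDH1, at 54 to 128 counts, rose 2.19-fold, and PDGFRB rose 1.72-fold. CDH1 is 1 of 10 luminal markers, of which 7 were tested and 3 rose: CDH1, KRT8 and ERBB2. The other tested ones lay either way and were not called by edgeR. EPCAM and ERBB3 had log2 fold changes of -0.34 and -0.29, and KRT18 and GATA3 of 0.15 and 0.09. The luminal markers ESR1 and FOXA1 were at 0 counts in each library and PGR at 0 to 2, whereas KRT8 had at least 8480 and GATA3 at least 491. The summed level of the 10 luminal markers was 1262 and 1276 CPM (counts per 1000000 of the library) in KD and 1103 to 1119 CPM in parent. Most of that sum was KRT8, KRT18 and ERBB2. Of 7 blood cell markers, PTPRC, CD3E, HBB and LYZ were at 0 in each library. The list summed to 132.9 to 135 CPM in KD and 105 to 125 CPM in parent, mostly CD68. CD68 did not pass (edgeR adjusted p = 0.0612), while CD14 fell with a 1.64-fold change (edgeR adjusted p = 0.0391). Of 9 fibroblast and endothelial markers in the table, DCN and VWF were at 0, and the list summed to 84.9 to 99.2 CPM in KD and 51.1 to 72.9 CPM in parent, mostly PDGFRB and COL1A1. The part of these genes in the results was not tested.

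Of the 35 genes, 3 rose and 5 fell in KD, and all 8 changes were under 1.5-fold. In RNA from whole cultures, fewer cells of a kind, such as cells in S phase, and less RNA per cell cannot be told apart. FANCG, XRCC3 and MUS81 rose by 1.31-fold, 1.25-fold and 1.20-fold. BRCA2, RBBP8, FANCI, ATM and RAD50 fell, with fold changes of 1.40, 1.39, 1.25, 1.19 and 1.15. Calls are edgeR quasi-likelihood tests over the whole table at an adjusted p under 0.05. The 8 called genes are 22.9% of the set, near the 21.5% called over all genes tested (9.15% higher and 12.4% lower), so the share called is not a result about this set. The median log2 fold change of the set was -0.08, against 0.00 over all genes tested. Of the 35 genes, 22 (62.9%) lay below 0, against 49.9% of all genes tested. That share is not particular to the set, since 62.9% of the 35 proliferation genes described below also lay below 0. The median size of change, sign set aside, was 0.18 in the set and 0.19 over all genes tested.

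The estimated changes in this set were small. Their intervals rest on few libraries, whose spread may be technical, so larger changes are not excluded. The 95% interval of the log2 fold change lay within 2-fold either way for all 35 genes, and within 1.5-fold for 30 of them. Over all genes tested, 77.9% and 57.8% lay within those bounds. The width of an interval depends on counts, and these shares were not matched for level. The contrast is therefore not read as a result about this set. The exceptions to the 1.5-fold bound were BRCA2, RBBP8, FANCB, FANCL and FANCF. With KD replicate 1 left out, 1 of the 35 genes was called (FANCG), where 10.8% of all genes were. With KD replicate 2 left out there were 4 (12.3% of all genes), and with parent replicate 2 left out there were 3 (12.6%). Leaving out parent replicate 1 gave 9 (21.2%) and parent replicate 3 gave 6 (16.9%). DESeq2 called 7 (19.1%), and edgeR with no low-count filter called 6 (9.58%), with the replicate number as a block 9 (24.3%), with library totals alone 8 (21.9%) and with the size factors of DESeq2 8 (21.5%).

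**Figure D1:**
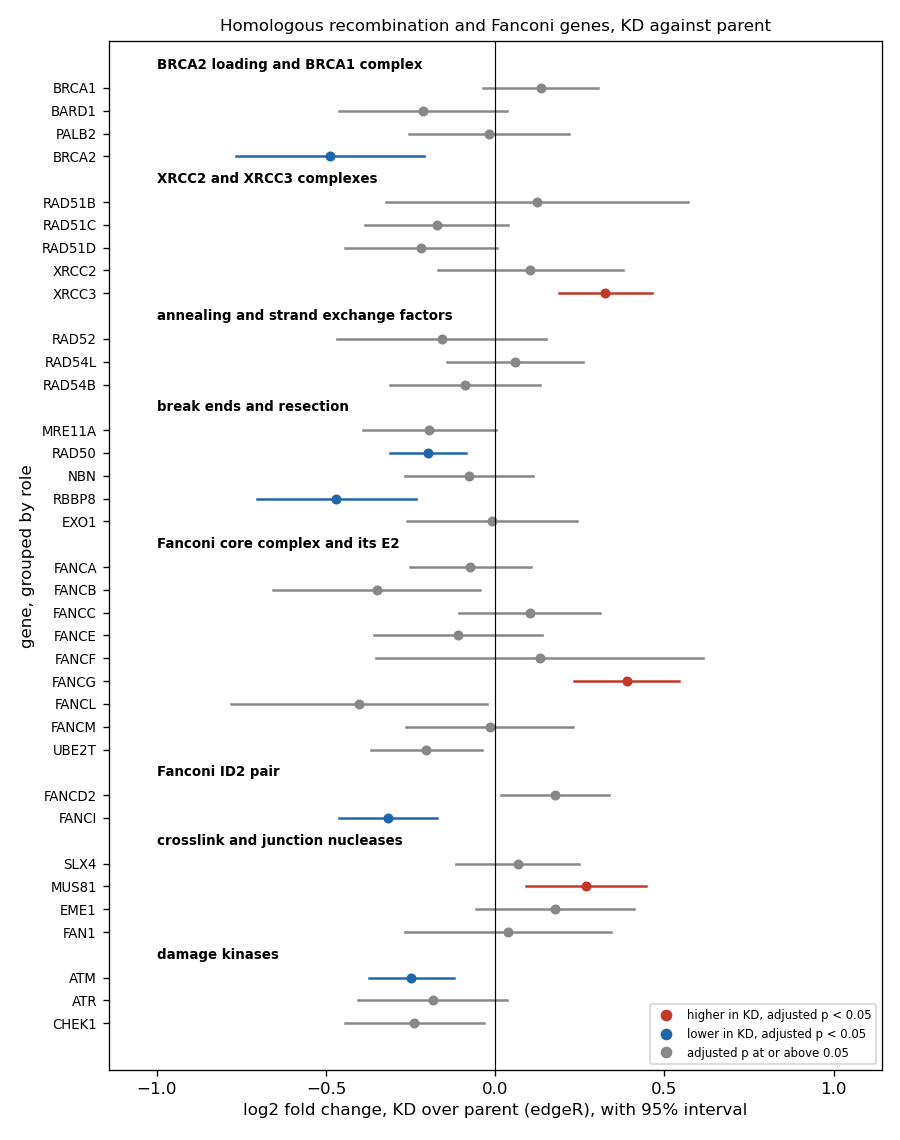
Log2 fold change of KD over parent for each of the 35 genes (x axis), with its 95% interval, grouped by role (y axis). Red points rose and blue points fell at an adjusted p under 0.05, and grey points did not pass. The 3 genes that rose and the 5 that fell are spread over 7 of the 8 roles.

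**Figure D2:**
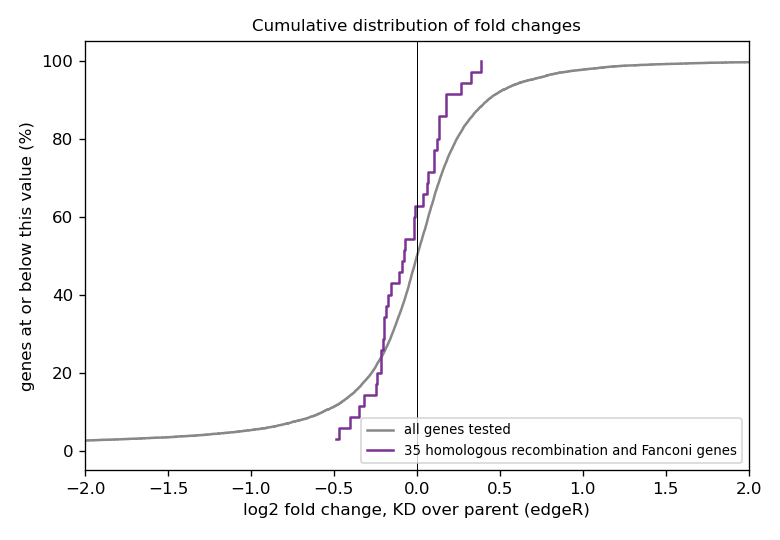
Cumulative share of genes (y axis, %) at or below each log2 fold change (x axis, drawn from -2 to 2) for the 35 genes and for all genes tested. The set has a median of -0.08 against 0.00, and its largest change is 0.49 in size. The curves were not matched for level, so the lack of larger changes is not read as a result about the set.

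The study turns on G-quadruplexes, so the promoters were searched for the usual quadruplex pattern, 4 runs of at least 3 G separated by 1 to 7 bases, on either strand. RefSeq promoter windows of 300 bases (250 before and 50 after the gene start, GRCh38.p14) matched 32 of the 35 genes. NBN, RAD54B and FANCI had no entry. Windows lie at the outermost annotated start, which need not be the start used in these cells. The pattern was in 6 of the 32 windows (18.8%): BARD1, RAD51D, RAD54L, RBBP8, FANCC and ATR. It was in 24.1% of all promoter windows and in 30.4% of those of protein-coding genes. Of the 6 genes, RBBP8 was called, and of the 26 without the pattern, 6 were called. Their median log2 fold changes were -0.20 and -0.02. With 6 genes, neither the count called nor the median is a result about the pattern. Over all tested genes with a window, 28.4% of 3423 with the pattern and 22.7% of 6579 without it were called. Those groups were not matched for GC content or level, and the cause of the difference was not tested. A match is a run of letters, not a measured structure or a site bound by APE1.

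The windows were also searched for 3 forms of the E2F motif, TTTCGCGC, TTTGGCGC and TTTCCCGC, on either strand. E2F factors switch on S-phase genes. At least 1 form was in 4 of the 32 windows (12.5%), those of XRCC2, EXO1, FANCC and FANCD2, against 2.79% of all windows and 3.77% of protein-coding ones. None of these 4 genes was called by edgeR or DESeq2 (1 had an unadjusted edgeR p under 0.05, FANCD2 at 0.0354), and their median log2 fold change was 0.10. Of the 28 windows without the motif, 7 belong to called genes (25.0%). Over all tested genes with a window, 86 of 453 with the motif and 2380 of 9549 (24.9%) without it were called, so with 4 genes a count of 0 is no result about them.

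The windows shown are those of RBBP8, the called gene with the quadruplex pattern, of BARD1, which holds it at 3 places, of FANCC, which holds both motifs, and of FANCG, the gene called under every alternative tried, which holds neither. Capitals mark the quadruplex pattern and, in FANCC, also the E2F motifs. Runs of C are the pattern on the other strand.
RBBP8, chr18:22933078-22933377, plus strand: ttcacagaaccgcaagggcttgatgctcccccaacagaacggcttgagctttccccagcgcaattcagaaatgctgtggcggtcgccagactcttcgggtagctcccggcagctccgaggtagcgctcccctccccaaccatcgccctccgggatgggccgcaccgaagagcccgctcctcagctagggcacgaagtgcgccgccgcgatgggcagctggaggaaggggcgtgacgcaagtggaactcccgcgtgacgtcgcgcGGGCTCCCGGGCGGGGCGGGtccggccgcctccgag
BARD1, chr2:214809634-214809933, minus strand: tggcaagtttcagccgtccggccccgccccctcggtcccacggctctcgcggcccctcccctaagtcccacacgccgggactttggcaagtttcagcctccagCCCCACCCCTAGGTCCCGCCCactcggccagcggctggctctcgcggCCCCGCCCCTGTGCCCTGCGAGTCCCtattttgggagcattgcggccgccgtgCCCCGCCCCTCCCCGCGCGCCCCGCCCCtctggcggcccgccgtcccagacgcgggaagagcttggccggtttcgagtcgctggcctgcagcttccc
FANCC, chr9:95317660-95317959, minus strand: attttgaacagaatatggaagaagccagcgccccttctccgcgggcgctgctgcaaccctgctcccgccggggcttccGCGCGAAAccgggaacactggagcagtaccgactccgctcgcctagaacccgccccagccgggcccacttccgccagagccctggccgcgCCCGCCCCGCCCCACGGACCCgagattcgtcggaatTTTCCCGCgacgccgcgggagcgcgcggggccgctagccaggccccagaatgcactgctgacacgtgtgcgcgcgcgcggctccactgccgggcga
FANCG, chr9:35079893-35080192, minus strand: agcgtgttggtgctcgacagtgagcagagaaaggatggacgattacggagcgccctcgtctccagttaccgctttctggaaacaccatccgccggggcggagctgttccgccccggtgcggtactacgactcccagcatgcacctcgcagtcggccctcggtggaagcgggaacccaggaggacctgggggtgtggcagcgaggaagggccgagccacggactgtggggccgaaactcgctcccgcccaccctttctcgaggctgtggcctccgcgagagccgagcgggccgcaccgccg

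BRCA1 and BARD1 form a ubiquitin ligase that promotes end resection and recruits PALB2, and PALB2 in turn carries BRCA2 to the break. BRCA2 (ENSG00000139618) fell, while BRCA1, BARD1 and PALB2 did not pass. BRCA2 stood at 32.7 and 40.8 CPM in KD replicates 1 and 2, against 47.0, 51.8 and 55.9 CPM in parent replicates 1, 2 and 3. The groups did not overlap, and KD replicate 1 was the lowest library by a wide margin. The means were 36.7 ± 5.70 CPM (SD, n = 2) in KD and 51.6 ± 4.47 CPM (SD, n = 3) in parent, a log2 fold change of -0.49 ± 0.117 (SE, edgeR adjusted p = 0.0269). BRCA2 no longer passed when KD replicate 1 was left out (adjusted p = 0.14, log2 fold change -0.34), nor when parent replicate 2 (0.0808) or parent replicate 3 (0.0585) was, nor with no low-count filter (0.0532). Its adjusted p lay within 0.00334 to 0.14 over the 10 alternatives.

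BRCA1 stood at 85.8 and 88.3 CPM in KD and at 76.3, 75.9 and 85.6 CPM in parent. The KD libraries were above the parent ones, parent replicate 3 by a margin under 1 CPM, and the log2 fold change was 0.13 ± 0.0717 (SE, adjusted p = 0.234, 95% interval -0.04 to 0.30). BARD1 stood at 22.6 and 21.5 CPM in KD and at 22.4, 26.8 and 27.4 CPM in parent. Its groups overlapped through parent replicate 1, and it passed only when that library was left out (edgeR adjusted p = 0.035 against 0.195 with all libraries, within 0.035 to 0.486 over the 10 alternatives). PALB2 stood at 18.4 and 16.3 CPM in KD and at 18.7, 16.4 and 17.5 CPM in parent, with full overlap and a 95% interval of the log2 fold change from -0.25 to 0.22.

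RAD51B, RAD51C, RAD51D, XRCC2 and XRCC3 form complexes that act in homologous recombination. Of the 5, XRCC3 (ENSG00000126215) rose and none fell. XRCC3 stood at 40.2 and 40.7 CPM in KD and at 31.6, 32.4 and 32.7 CPM in parent. Both groups were tight and did not overlap, with means of 40.4 ± 0.386 CPM in KD and 32.3 ± 0.583 CPM in parent. The log2 fold change was 0.32 ± 0.0579 (SE, edgeR adjusted p = 0.00904). XRCC3 no longer passed when KD replicate 1 (adjusted p = 0.055) or KD replicate 2 (0.072) was left out, where its log2 fold change was 0.33 and 0.31, within 0.00787 to 0.072 over the 10 alternatives. RAD51C, which works in a pair with XRCC3, stood at 20.8 and 23.0 CPM in KD and at 23.6, 26.7 and 23.8 CPM in parent, below parent in both libraries (log2 fold change -0.17 ± 0.0887 SE, edgeR adjusted p = 0.217). RAD51D stood at 10.2 and 10.5 CPM in KD and at 11.8, 12.1 and 12.2 CPM in parent (log2 fold change -0.22 ± 0.0942 SE, adjusted p = 0.149). RAD51B and XRCC2 overlapped between groups, with log2 fold changes of 0.12 and 0.10. RAD51B had only 69 to 102 counts in a library, and its interval ran from -0.32 to 0.57.

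None of the 3 factors of annealing and strand exchange passed in edgeR. RAD52, which anneals complementary strands, stood at 6.30 and 7.63 CPM in KD and at 7.73, 7.72 and 7.88 CPM in parent. RAD54L and RAD54B, motor proteins that act with the filament, had log2 fold changes of 0.06 and -0.09 and overlapped between groups. Unadjusted p-values for the 3 genes were 0.264, 0.51 and 0.369, and DESeq2 called none of them either.

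The genes that recognise and trim broken ends had log2 fold changes from -0.47 to -0.01, and 2 of the 5 fell. The sign of EXO1 was not stable, since it was above 0 with library totals alone (0.0085), on leaving out KD replicate 1 (0.11) and on leaving out either of the parent replicates 2 (0.031) and 3 (0.017). RBBP8 (ENSG00000101773) encodes CtIP, which starts resection together with the MRE11, RAD50 and NBN complex. It stood at 57.8 and 66.1 CPM in KD and at 76.9, 89.5 and 91.1 CPM in parent, with no overlap. The means were 62.0 ± 5.84 and 85.8 ± 7.76 CPM, a log2 fold change of -0.47 ± 0.0988 (SE, edgeR adjusted p = 0.0167). RBBP8 no longer passed when KD replicate 1 (adjusted p = 0.106) or parent replicate 2 (0.0662) was left out, within 0.000384 to 0.106 over the 10 alternatives. RAD50 (ENSG00000113522), the long coiled-coil ATPase that tethers ends, stood at 155 and 151 CPM in KD and at 181, 175 and 171 CPM in parent. The libraries of each group lay close together and apart from the other group, with means of 152.8 ± 2.68 and 175.5 ± 4.85 CPM. Its log2 fold change was -0.20 ± 0.0471 (SE, edgeR adjusted p = 0.0255). RAD50 failed the threshold when KD replicate 1 (adjusted p = 0.123), KD replicate 2 (0.177) or parent replicate 2 (0.0838) was left out, within 0.00763 to 0.177 over the 10 alternatives.

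The nuclease gene MRE11A stood at 38.5 and 43.8 CPM in KD and at 44.5, 49.1 and 47.9 CPM in parent. It lay below parent in both KD libraries, with a log2 fold change of -0.20 ± 0.0828 (SE), about that of RAD50, but did not pass (edgeR adjusted p = 0.144). NBN, the subunit that links the complex to ATM, overlapped between groups (log2 fold change -0.08, 95% interval -0.27 to 0.11). EXO1, the nuclease of long-range resection, had 47.7 and 57.0 CPM in KD and 47.8 to 55.8 CPM in parent, and its log2 fold change was -0.01.

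**Figure D3:**
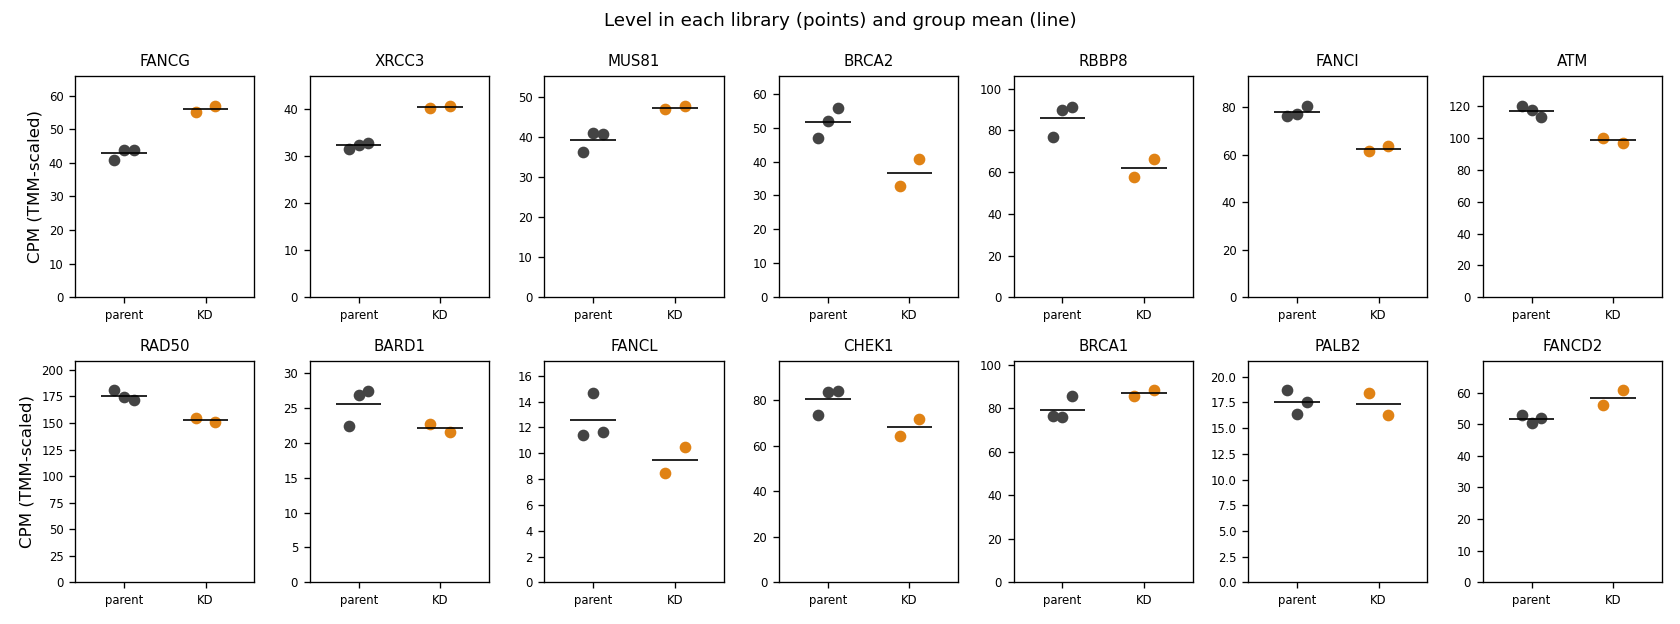
Level in CPM (y axis, from 0) in each library (points) and group mean (line) for the 8 genes called and for BARD1, FANCL, CHEK1, BRCA1, PALB2 and FANCD2. In the 8 called genes the 2 KD points do not overlap the 3 parent points, and in BRCA2 and RBBP8 the KD points lie farther apart than in XRCC3 or FANCG.

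Among the Fanconi core complex genes and UBE2T, the ubiquitin-conjugating enzyme that works with FANCL, FANCG rose and no other of the 9 passed. FANCG (ENSG00000221829), a core complex scaffold, stood at 55.2 and 56.8 CPM in KD and at 40.9, 43.7 and 43.8 CPM in parent. The means were 56.0 ± 1.13 and 42.8 ± 1.65 CPM, with no overlap. The log2 fold change was 0.39 ± 0.0651 (SE, edgeR adjusted p = 0.00711), and FANCG kept its call in each of the 10 alternatives (adjusted p 0.000778 to 0.0493). No other of the 35 genes did so.

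FANCL, the ligase that attaches ubiquitin, stood at 8.46 and 10.5 CPM in KD and at 11.4, 14.7 and 11.7 CPM in parent. All parent libraries were above both KD libraries, with a log2 fold change of -0.40 ± 0.159 (SE, edgeR adjusted p = 0.122, 95% interval -0.78 to -0.02). FANCB, which sits with FANCL in the catalytic part of the complex, stood at 6.77 and 7.88 CPM in KD and at 8.75, 9.29 and 10.002 CPM in parent (log2 fold change -0.35 ± 0.128 SE, adjusted p = 0.0996). These 2 genes had 100 to 215 counts in a library. UBE2T stood at 31.5 and 35.1 CPM in KD and at 38.0, 38.5 and 38.6 CPM in parent (log2 fold change -0.20 ± 0.0693 SE, adjusted p = 0.0827). FANCA, FANCC, FANCE, FANCF and FANCM, the other subunits and the DNA translocase that anchors the complex, overlapped between groups, with log2 fold changes from -0.11 to 0.13. FANCF was the least precise of all 35, with 88 to 125 counts and an interval from -0.35 to 0.61.

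FANCD2 and FANCI are clamped together on DNA once the core complex has modified them. FANCI (ENSG00000140525) stood at 61.6 and 63.6 CPM in KD and at 76.2, 77.3 and 80.6 CPM in parent, with no overlap. Its means were 62.6 ± 1.43 and 78.0 ± 2.27 CPM, and it fell by 0.32 ± 0.0609 on the log2 scale (SE, edgeR adjusted p = 0.0121). FANCI failed the threshold when KD replicate 1 was left out (adjusted p = 0.0738, within 0.000973 to 0.0738 over the 10 alternatives). FANCD2 lay the other way, at 56.1 and 60.7 CPM in KD and at 52.8, 50.4 and 51.9 CPM in parent. It was above parent in both KD libraries but did not pass (log2 fold change 0.18 ± 0.0674 SE, edgeR adjusted p = 0.112).

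The opposite signs in this pair prompted a look at the count ratio of binding partners within each library, which no scaling of libraries can move. The 5 pairs were chosen after these values were seen, and with 2 against 3 libraries the smallest p that an exact permutation test can give is 0.1. The ratio of FANCI to FANCD2 counts was 1.10 and 1.05 in KD and 1.44, 1.53 and 1.55 in parent, a difference of 1.41-fold with no overlap (exact permutation test, two-sided p = 0.1, 0.25 adjusted over 5 pairs). The ratio of BARD1 to BRCA1 was 0.264 and 0.243 in KD and 0.293, 0.354 and 0.32 in parent, 1.27-fold lower with no overlap (exact two-sided p = 0.1, adjusted 0.25). PALB2 to BRCA2 was 1.39-fold higher, but KD replicate 2 and parent replicate 1 were both near 0.399 (exact two-sided p = 0.2, adjusted 0.333). EME1 to MUS81 and MRE11A to RAD50 overlapped between groups, with ratios that differed by 1.07-fold and 1.00-fold (exact two-sided p = 0.3 and 1, adjusted 0.375 and 1).

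Of the nucleases that cut at crosslinks and at joined DNA molecules, MUS81 rose and SLX4, EME1 and FAN1 did not pass. All 4 had log2 fold changes above 0 with all libraries, but FAN1 was below 0 without KD replicate 1 (-0.16) or parent replicate 3 (-0.027), and SLX4 without KD replicate 2 (-0.018). MUS81 (ENSG00000172732), the catalytic subunit paired with EME1, stood at 47.1 and 47.9 CPM in KD and at 36.4, 41.1 and 40.8 CPM in parent. The groups did not overlap, and the means were 47.5 ± 0.578 and 39.4 ± 2.62 CPM. The log2 fold change was 0.27 ± 0.0746 (SE, edgeR adjusted p = 0.0455), just under the threshold. MUS81 lost its call with each library left out (adjusted p 0.0653 to 0.183), with DESeq2 (0.0743) and with no low-count filter (0.111). EME1 stood at 13.4 and 14.2 CPM in KD and at 11.7, 13.0 and 11.9 CPM in parent (log2 fold change 0.18 ± 0.0985 SE, edgeR adjusted p = 0.256). The scaffold SLX4 and the nuclease FAN1 overlapped between groups, at log2 fold changes of 0.07 and 0.04.

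The damage kinases ATM, ATR and CHEK1 all lay below parent on average, and ATM passed. ATM (ENSG00000149311), the kinase that answers broken ends, stood at 100.02 and 96.7 CPM in KD and at 120.2, 118 and 113 CPM in parent. The groups did not overlap, with means of 98.4 ± 2.33 and 116.9 ± 3.69 CPM. ATM fell by 0.25 ± 0.0529 on the log2 scale (SE, edgeR adjusted p = 0.0175). ATM failed it when KD replicate 1 (adjusted p = 0.0767), KD replicate 2 (0.109) or parent replicate 2 (0.073) was left out, within 0.00369 to 0.109 over the 10 alternatives. CHEK1, the checkpoint kinase that ATR activates, stood at 64.5 and 71.9 CPM in KD and at 73.6, 83.6 and 84.2 CPM in parent. Its KD libraries were the lowest, with a log2 fold change of -0.24 ± 0.0860 (SE, edgeR adjusted p = 0.096), and it passed only without parent replicate 1 (0.0346, within 0.0346 to 0.383). ATR, the kinase that answers exposed strands of DNA, stood at 42.5 and 49.0 CPM in KD and at 48.7, 51.6 and 55.8 CPM in parent, and the groups overlapped.

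Library differences within a group ran through most of the set. KD replicate 1 was below KD replicate 2 in 28 of the 35 genes, against 49.0% of all genes tested. It was the lowest of all libraries in 17, and parent replicate 1 was the lowest parent library in 27. Shares over all genes were not computed for the counts of 17 and 27, so these are not read as a result about this set. The summed level of the 35 genes was 1390 and 1469 CPM in KD and 1461, 1543 and 1569 CPM in parent. The sums overlapped, since KD replicate 2 lay above parent replicate 1. The median difference from the parent mean was -0.14 in KD replicate 1 and -0.05 in KD replicate 2, on the log2(CPM + 0.5) scale. The 35 proliferation genes had the same order of libraries within each group. Summed, they stood at 5671 and 6383 CPM in KD replicates 1 and 2. In parent replicates 1, 2 and 3 they stood at 5543, 5903 and 6237 CPM. The order is not particular to them. The other recombination genes described below had it too, at 2260 and 2360 CPM in KD and 2280, 2324 and 2370 CPM in parent. The end joining and checkpoint lists below had it as well. The part of these lists in the results was not tested. In 19 of the 35 genes (54.3%) the KD and parent libraries did not overlap, 6 above and 13 below parent. Over all genes tested, 51.4% did not overlap, 25.3% above and 26.1% below.

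**Figure D4:**
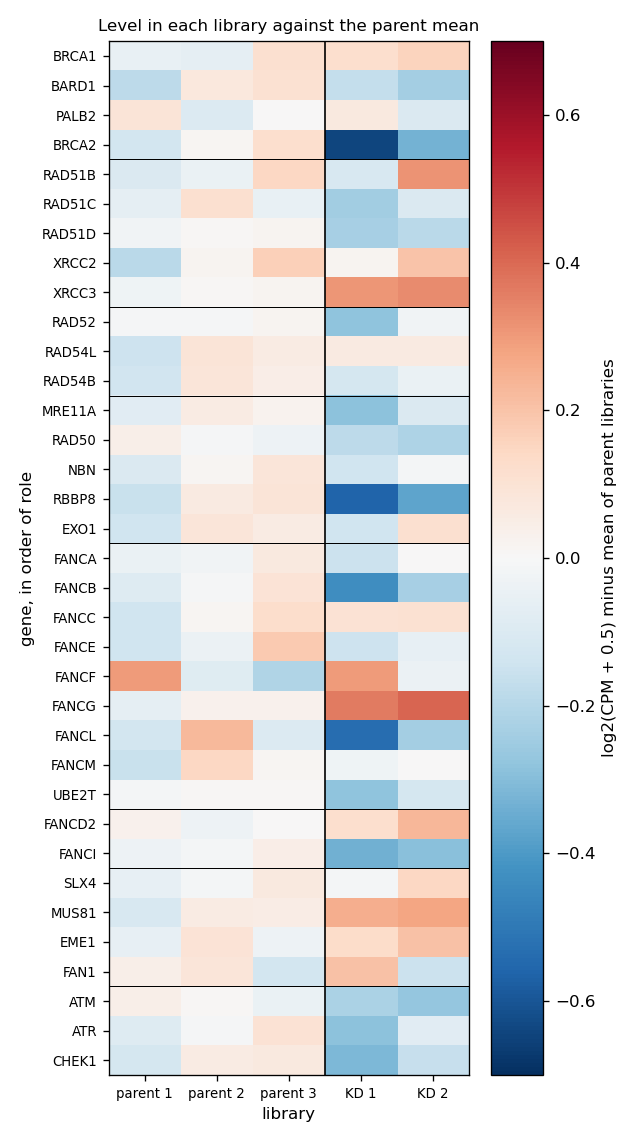
Level of each of the 35 genes (rows, in order of role) in each library (columns), as log2(CPM + 0.5) minus the mean of the parent libraries. The KD replicate 1 column is bluer than that of KD replicate 2 in 28 genes. Parent replicate 1 is the lowest parent library in 27, a count with no share over all genes beside it.

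Other genes of the pathway moved both ways as well. Of 52 further homologous recombination and Fanconi genes, all tested, 3 rose and 6 fell (17.3%), with a median log2 fold change of 0.01. Over all genes tested 21.5% were called, and the share of 17.3% is not read as a result about this list. C17orf70, the core complex partner also called FAAP100, rose 1.32-fold, at 49.5 ± 3.88 against 37.4 ± 1.41 CPM (edgeR adjusted p = 0.0106). FAM175A, the Abraxas subunit that binds BRCA1 at ubiquitin marks, fell with a 1.31-fold change, at 18.2 ± 0.0392 against 23.9 ± 1.04 CPM (adjusted p = 0.0123). The helicase BLM fell with a 1.27-fold change (adjusted p = 0.0142). SWI5, an accessory factor of strand exchange, rose 1.46-fold (adjusted p = 0.0208). SFR1, its binding partner, fell with a 1.47-fold change, at 3.92 ± 0.0807 against 5.76 ± 0.569 CPM (adjusted p = 0.0459), and was named after its value was seen. In place of 9, the calls numbered 2 with parent replicate 2 left out (12.6% called over all genes) and 4 with parent replicate 3 left out (16.9%). With no low-count filter the calls numbered 4 (9.58% over all genes). Calls fell over the whole table too, so the drop is not read as a result about this list.

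Of 23 end joining genes, which mend breaks without a template, 2 rose and 1 fell (13.0%), against 21.5% called over all genes tested. POLQ, the polymerase of microhomology-mediated joining, fell with a 1.33-fold change, at 19.4 ± 0.521 against 25.7 ± 1.27 CPM (edgeR adjusted p = 0.0107). The joining factor PAXX, listed as C9orf142, rose 1.21-fold (adjusted p = 0.026), and so did MAD2L2, which the list of other recombination genes also holds, by 1.25-fold (adjusted p = 0.0347). Of 23 checkpoint genes, 2 rose and 3 fell (21.7%). RAD9A, a subunit of the checkpoint clamp, rose 1.37-fold (adjusted p = 0.0106), while RAD1, another subunit, fell with a 1.23-fold change (adjusted p = 0.0443) and was named after its value was seen. The phosphatase CDC25B rose 1.31-fold (adjusted p = 0.00237). ETAA1 and TOPBP1, which both activate ATR, fell with changes of 1.28-fold and 1.21-fold (adjusted p = 0.0163 and 0.0322). Of 35 proliferation genes, 3 rose and 1 fell (11.4%), with a median log2 fold change of -0.03. TYMS, CCNB1 and BIRC5 rose by 1.23-fold, 1.21-fold and 1.18-fold, and the repressor E2F7 fell with a 1.48-fold change (adjusted p = 0.0321, 0.0405, 0.0323 and 0.00385). That count of 4 was 1 without parent replicate 3 (16.9% called over all genes) and 2 without parent replicate 2 (12.6%). With no low-count filter it was 1 (9.58% over all genes).

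Genes that start close to a member on the opposite strand were examined, by a rule added after the data were seen. With start sites at most 1000 bases apart in the RefSeq windows, 12 of the 35 genes had such a partner, and 8 partners were tested. None of the 8 was called by edgeR (0 at an unadjusted p under 0.05, 0 in DESeq2), against 21.5% of all genes tested, and 8 genes are too few to read a difference from that share. NPAT, the histone gene activator next to ATM, had a log2 fold change of -0.12 ± 0.0736 (SE, edgeR adjusted p = 0.316) beside -0.25 for ATM. ZFYVE21, next to XRCC3, had 0.12 ± 0.0801 (SE, adjusted p = 0.334) beside 0.32. The difference within these pairs was not tested. Counts can also be shared where genes overlap, and whether strand was used in counting is not given in the sources used here. In RefSeq, 14 of the 35 genes overlap another tested gene. Among the 8 called genes, these are XRCC3 with KLC1, FANCI with POLG, MUS81 with EFEMP2 and ATM with C11orf65, and none of these 4 overlapping genes was called by edgeR. Of the 14, LRRC41, which overlaps RAD54L, was called higher (102.6 against 83.6 CPM), as was AOPEP, which overlaps FANCC (93.8 against 69.95 CPM). Beside 21.5% called over all genes tested, the 4 and the 14 are too few to read a difference. Neither RAD54L nor FANCC was called. KLC1 stood at 141 CPM in KD and 123 CPM in parent.

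The authors' deposited table of their own DESeq2 comparison gives the same sign as edgeR for all 35 genes, with APEX1 at -1.52. It compares KD and parent in this same series, so the shared signs are not independent support. An adjusted p under 0.05 in the authors' deposited table belongs to 6 of the 35 genes, against 13.6% of all genes given one there, and all 6 are among the 8 called by edgeR. XRCC3 and MUS81 are at 0.0525 and 0.154 in the authors' deposited table.

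**Figure D5:**
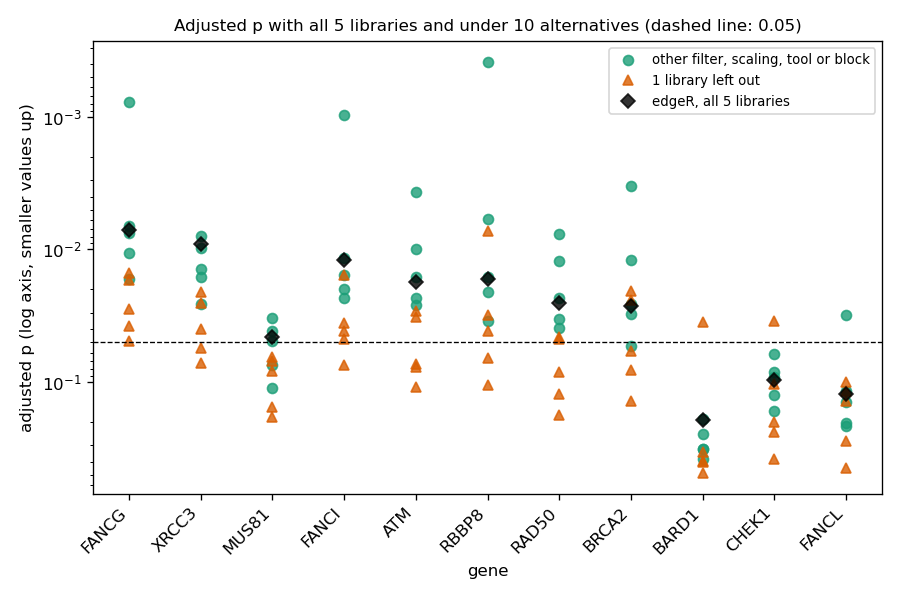
Adjusted p (y axis, log scale, smaller values up) of the 8 called genes and of BARD1, CHEK1 and FANCL (x axis) with all 5 libraries and under each of 10 alternatives. Only FANCG stays on the called side of the dashed line at 0.05 throughout, and the points below the line are mostly fits with 1 library left out.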

How the data were processed

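Gene expression was measured in 2 KD and 3 parent RNA-seq libraries. The series' 2 ChIP libraries were not analysed here. The authors deposited expected counts per gene, in whole numbers, and, per the submitters' processing notes, used STAR, DESeq2 and hg19 (no versions listed). How reads were counted, on which annotation and with which strand setting, is not given in the sources used here. No transcript values were used. The authors' deposited comparison holds, per the file headers, the mean normalised signal, the log2 fold change, its error, the test score and p-values.

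Groups came from the sample titles. Genes passing filterByExpr (minimum count 10, minimum total 15) were scaled with TMM and tested in edgeR 4.0.16 (R 4.3.3, quasi-likelihood, group as the only term, 3 residual degrees of freedom), with Benjamini-Hochberg adjustment over all genes tested. The standard error is the log2 fold change divided by the root of F. CPM values are on TMM-scaled libraries, as mean ± SD. Levels are not compared between genes as amounts, since no transcript lengths were used. The code was tested on 1 simulated set. Changes of 1.25-fold, 1.5-fold and 2-fold were recovered in 12%, 64% and 78% of cases. Of the calls, 13.1% were false, above the nominal share. A change of these sizes that did not pass may therefore be real, and single calls near the threshold are uncertain. The members and lists were chosen with earlier results of these data known. Named genes are APEX1, each member called or passing in an alternative, BRCA1, BRCA2, PALB2, FANCD2, FANCI and ATM, and up to 4 called genes of each other list by adjusted p. Alternatives were DESeq2 1.42.0, its size factors in edgeR, library totals alone, no low-count filter, a replicate block and leaving out each library. RefSeq promoter windows are of GRCh38.p14. Some genes are not reported here.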

Additional observations from a re-analysis of the deposited data

How the results depend on the processing

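With 2 and 3 libraries, changes under about 1.5-fold rest on few libraries. Of 350 refits of the 35 genes, 308 kept direction and side of the threshold, 22 lost a call, 3 gained one and 17 changed sign, all of the last in 8 genes that did not pass: EXO1, PALB2, FAN1, FANCM, RAD51B, RAD54L, FANCF and SLX4. With library totals alone PALB2, EXO1 and FANCM were at 0.0014, 0.0085 and 0.0019. The 8 calls became 1 to 9 with a library left out, 1 to 2 higher and 0 to 7 lower, the 3485 over all genes 1823 to 3383, the 9 other recombination genes 2 to 10 and the 4 proliferation genes 1 to 3. With no low-count filter the last counts were 4 and 1. The median, -0.08 with all libraries, was -0.15 to -0.034 with a library left out. Sign changes with a library left out spanned -0.16 to 0.21 for FAN1, -0.15 to 0.11 for EXO1, -0.11 to 0.068 for PALB2, -0.10 to 0.059 for FANCM, -0.13 to 0.33 for RAD51B, -0.019 to 0.10 for RAD54L, -0.062 to 0.30 for FANCF and -0.018 to 0.14 for SLX4. The cause was not tested.

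The replicate numbers are not stated to pair the libraries. The deviations of same-numbered KD and parent libraries correlated across genes at 0.12 and -0.003. With the number as a replicate block, 9 of the 35 genes were called, FANCL added (adjusted p = 0.0313), EXO1 and FAN1 were at 0.015 and -0.033, 3940 genes were called over the table, and APEX1 was at -1.48.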
